A study of Mus musculus with 6 samples.

Results

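A set of 10 genes of the hypoxia-inducible factor (HIF) pathway was followed in mouse embryonic fibroblasts (MEFs) with and without erastin. They were the oxygen-regulated subunits Hif1a and Epas1, the prolyl hydroxylases Egln1, Egln2 and Egln3, the ubiquitin ligase subunit Vhl, and the target genes Vegfa, Bnip3, Ddit4 and Adm. Their rows were found by gene symbol. All 10 had a row among the 43346 genes of the deposited count table, and all 10 were among the 14000 genes with enough reads to be tested. The cells were primary MEFs of the C57BL/6 strain at passage 9, which are cultured fibroblasts of limited life span. The 3 erastin libraries came from MEFs exposed to 3 µM erastin for 24 h and the 3 DMSO libraries from MEFs given the solvent. Erastin blocks the cystine/glutamate antiporter and is used to induce ferroptosis, an iron-dependent death by lipid peroxidation. Per the labels, the culture medium of both groups contained 2-mercaptoethanol, and no oxygen level is named. The labels call the experiment triplicated but do not say whether replicates came from separate embryos, so p-values measure the spread between these libraries, which may be technical.

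HIF is a transcription factor made of an alpha subunit, HIF-1alpha (Hif1a) or HIF-2alpha (Epas1), and the constant partner ARNT. When oxygen is present, the EGLN enzymes hydroxylate the alpha subunit at prolines, in a reaction that needs oxygen, ferrous iron and 2-oxoglutarate, and the VHL ligase then marks it for destruction. This control acts on the protein, so transcript levels do not measure HIF activity. When the alpha subunit escapes, HIF binds a short DNA core, ACGTG or GCGTG, near genes for glucose uptake, vessel growth, mitophagy and its own hydroxylases. Several targets also answer to other stress factors, for example Vegfa and Ddit4 to ATF4 and Hmox1 to NRF2.

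The stretches directly before RefSeq start sites (GRCm38.p6) of 5 of the genes show how often that core occurs. They are those of Egln3, Vegfa, Bnip3 and Adm, which had the 4 largest rises, and of Hif1a, which fell. Each is 250 bases long and is given 5′ to 3′ on the strand of the gene. Capitals mark every ACGTG or GCGTG, read as CACGT or CACGC where the core lies on the other strand.
Egln3 (chr12:54203875-54204124, minus strand): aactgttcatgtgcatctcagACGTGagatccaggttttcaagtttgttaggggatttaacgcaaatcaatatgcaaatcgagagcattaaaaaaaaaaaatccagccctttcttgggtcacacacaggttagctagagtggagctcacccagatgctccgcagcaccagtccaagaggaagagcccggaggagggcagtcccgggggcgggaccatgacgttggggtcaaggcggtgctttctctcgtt
Vegfa (chr17:46032378-46032627, minus strand): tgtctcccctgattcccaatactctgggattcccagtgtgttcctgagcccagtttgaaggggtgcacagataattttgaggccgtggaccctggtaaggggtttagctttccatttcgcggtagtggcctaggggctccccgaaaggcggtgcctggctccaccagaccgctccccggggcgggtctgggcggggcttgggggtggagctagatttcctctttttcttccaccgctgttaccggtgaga
Bnip3 (chr7:138909507-138909756, minus strand): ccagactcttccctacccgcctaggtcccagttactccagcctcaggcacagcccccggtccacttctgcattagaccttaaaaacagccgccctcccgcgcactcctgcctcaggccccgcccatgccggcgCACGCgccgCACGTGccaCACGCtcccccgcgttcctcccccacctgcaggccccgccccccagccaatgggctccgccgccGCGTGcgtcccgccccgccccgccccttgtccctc
Adm (chr7:110627407-110627656, plus strand): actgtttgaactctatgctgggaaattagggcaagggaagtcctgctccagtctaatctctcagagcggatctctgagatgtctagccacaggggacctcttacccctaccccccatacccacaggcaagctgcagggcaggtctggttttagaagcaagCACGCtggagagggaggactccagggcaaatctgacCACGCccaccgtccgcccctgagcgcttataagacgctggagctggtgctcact
Hif1a (chr12:73907617-73907866, plus strand): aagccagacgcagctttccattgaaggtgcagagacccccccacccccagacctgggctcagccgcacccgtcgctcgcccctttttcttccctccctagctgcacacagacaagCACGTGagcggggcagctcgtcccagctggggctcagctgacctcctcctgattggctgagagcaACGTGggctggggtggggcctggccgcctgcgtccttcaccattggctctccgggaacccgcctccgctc
The Bnip3 stretch held 5 matches between -117 and -35 bases from the start, of which 2 are the same CACGTG read on both strands. Adm held 2 matches, at -90 and -54, and Egln3 held 1, at -229. Hif1a held 3, of which 2 form a CACGTG, and its stretch lies inside the longer GENCODE gene model. The Vegfa stretch shown held 0, while that of a second RefSeq start of Vegfa (chr17:46025164-46025413) held 2. Cores more than 250 bases before a start were not searched for, so 0 applies to the stretch shown only. That second stretch lies inside the GENCODE gene model of Vegfa, as does that of a second Egln2 start inside its own model. RefSeq had 11 start sites for 9 of the 10 genes, without Epas1, and 9 of the 11 stretches held a match, including those of Egln1, Egln2 and Ddit4. A match stood in 38.6% of the 32851 stretches of all genes, and CACGTG, the E-box that other factors also bind, in 6.02%. Such matches describe the sequence and do not show that HIF binds there.

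Libraries held 13333911 to 20509970 counts, so a level of 3 counts was worth 0.14 to 0.234 CPM (counts relative to the scaled library size). The first principal component of the genes tested held 60.4% of the variance and parted the treatments, and the second, with 14.5%, mainly set DMSO replicate 3 apart. A gene was called when its Benjamini-Hochberg adjusted p-value in edgeR was below 0.05, which 43.1% of the genes tested reached, 21.6% higher and 21.5% lower with erastin. Fibroblast markers were abundant in every library, but 7 of 8 fell, and their summed level was 28495 to 29691 CPM without and 16751 to 18705 CPM with erastin. The summed level of 5 macrophage and leukocyte markers was 22.03 to 41.4 CPM without and 26.9 to 55.7 CPM with erastin, most of it from Lyz2 (edgeR adjusted p = 0.0578), and that of 5 epithelial markers was at most 3.17 CPM. The part of the fibroblast markers in the results below was not tested, and in bulk samples fewer cells of a type and less RNA per cell cannot be told apart. All levels below are means ± SD over the 3 libraries of a group unless given by library.

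Of the 10 genes, 6 rose with erastin (Egln1, Egln3, Vegfa, Bnip3, Ddit4 and Adm), 2 fell (Hif1a and Epas1) and 2 were not called (Egln2 and Vhl). Their share of calls was 80%, against 43.1% of all genes tested. The 10 genes were chosen with earlier results of these data known, so this share describes them and is no test. In 8 of the 10 the 3 erastin libraries lay wholly on one side of the 3 DMSO libraries, as they did for 52.5% of all genes tested. The median log2 fold change of the 10 was 0.63, against -0.0014 for all genes tested.

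**Figure D1:**
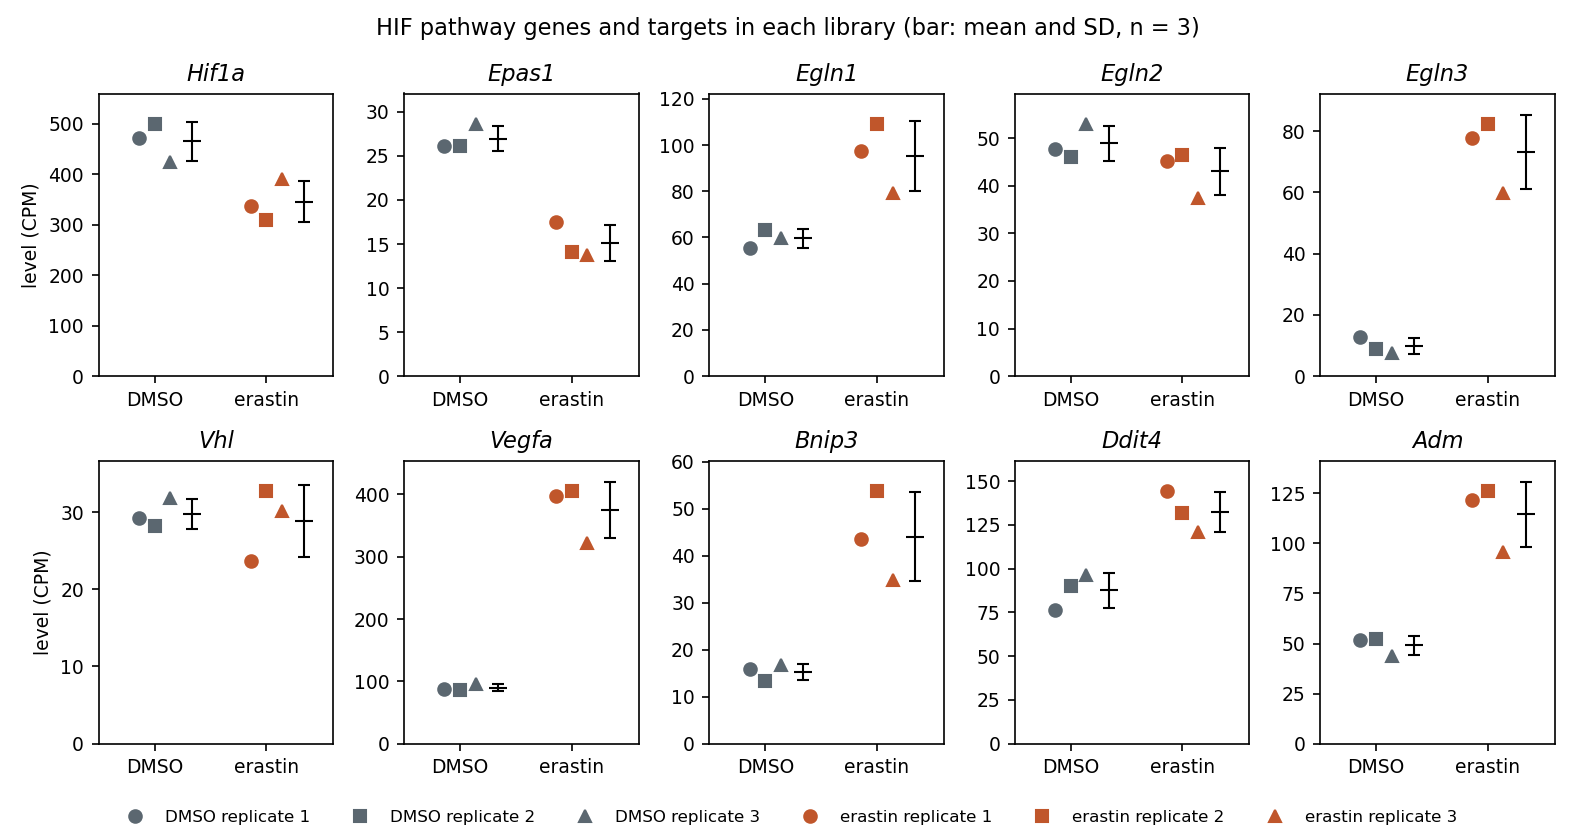
Level of each of the 10 genes in CPM (vertical axis, from 0) in the 3 DMSO and 3 erastin libraries, 1 point per library, with the mean and SD of each group. The groups overlap for Egln2 and Vhl and for none of the other 8 genes, and erastin replicate 3 is the lowest erastin library for each of the 6 genes that rose.

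The transcripts of both HIF alpha subunits were lower with erastin. Hif1a (ENSMUSG00000021109.9, chr12:73901375-73947530, plus strand) encodes the broadly expressed subunit and was the more abundant of the pair. It stood at 471, 499 and 424 CPM in DMSO replicates 1 to 3 and at 336, 309.8 and 391 CPM in erastin replicates 1 to 3. The groups did not overlap, although the highest erastin library came near the lowest DMSO library. The mean fell from 465 ± 38.3 to 345 ± 41.2 CPM (log2 fold change -0.43, SE 0.089, 95% interval -0.62 to -0.24, edgeR adjusted p = 0.00128). This change is of middling size for these data, since 48.2% of the genes tested had a larger one in either direction. Epas1 (ENSMUSG00000024140.9, chr17:86753700-86833410, plus strand), best known from endothelial and erythropoietin-producing cells, stood at 26.1, 26.1 and 28.6 CPM in the DMSO libraries and at 17.5, 14.1 and 13.8 CPM in those with erastin. All erastin libraries lay well below those of DMSO (log2 fold change -0.83, SE 0.14, 95% interval -1.13 to -0.52, edgeR adjusted p = 0.000269). Per kilobase of transcript, Hif1a exceeded Epas1 in every library, with a log2 ratio of 4.33 ± 0.194 in DMSO and 4.74 ± 0.285 with erastin. The ratios did not overlap but nearly met, at 4.4815 in DMSO replicate 2 and 4.486 in erastin replicate 1. Their exact two-sided permutation p was 0.1, the smallest that 3 against 3 libraries allow. An antisense gene, Gm15283, shares 330 exon bases with Hif1a and had 0 reads in each DMSO library and 8, 13 and 8 in the erastin libraries, against at least 5175 reads for Hif1a. Whether the counting used strand is not given in the sources used here.

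The prolyl hydroxylase genes moved unequally. Egln3 (ENSMUSG00000035105.5, chr12:54178981-54203860, minus strand), which encodes PHD3 and is itself a HIF target, had the largest change of the 10 genes. It stood at 12.7, 8.87 and 7.71 CPM in the DMSO libraries and at 77.7, 82.4 and 59.7 CPM in those with erastin. Even the lowest erastin library was several times the highest DMSO library. The fitted rise was 7.52-fold (log2 fold change 2.91, SE 0.17, 95% interval 2.55 to 3.27, edgeR adjusted p = 8.87e-09), and 1.1% of the genes tested changed more. Egln1 (ENSMUSG00000031987.5, chr8:124908587-124949324, minus strand) encodes PHD2, the main hydroxylase of HIF-1alpha in most cells. It stood at 55.5, 63.4 and 59.9 CPM in the DMSO libraries and at 97.2, 109 and 79.2 CPM in those with erastin. The groups were apart, but by far less than those of Egln3 (log2 fold change 0.67, SE 0.11, 95% interval 0.44 to 0.91, edgeR adjusted p = 0.000188). Egln2 (ENSMUSG00000058709.7, chr7:27158658-27166802, minus strand), which encodes PHD1, stood at 47.8, 46.01 and 53.01 CPM in the DMSO libraries and at 45.3, 46.4 and 37.3 CPM in those with erastin. These ranges overlapped and the difference was not called (log2 fold change -0.19, SE 0.11, 95% interval -0.42 to 0.049, edgeR adjusted p = 0.192). An offset for GC content and transcript length turned its direction to 0.12, again uncalled (edgeR adjusted p = 0.396).

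Because these 3 enzymes share a substrate, their transcript levels per kilobase were also set side by side. The levels were divided by the longest annotated transcript of each gene, and which transcripts the cells expressed was not tested. In CPM, without this division, Egln1 (59.6) exceeded Egln2 (48.9) in DMSO. In DMSO libraries Egln2 made up 53.4 ± 2.65%, Egln1 38.2 ± 2.704% and Egln3 8.46 ± 2.399% of their sum per kilobase. With erastin Egln2 made up 27.5 ± 1.05%, Egln1 35.6 ± 0.827% and Egln3 36.9 ± 0.773%. The share of Egln3 was 6.47% to 11.1% over the DMSO libraries and 36.1% to 37.6% over the erastin libraries, without overlap, and the share of Egln2 was likewise apart. The share of Egln1 overlapped. The sum of the 3 was 43.5 ± 1.097 CPM per kb in DMSO and 74.4 ± 10.98 CPM per kb with erastin. The exact two-sided permutation p was 0.1 for the sum and for the shares of Egln2 and Egln3, the smallest this design allows, and 0.2 for the share of Egln1, so none could reach 0.05, before or after adjustment over the 7 ratios and sums compared.

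**Figure D2:**
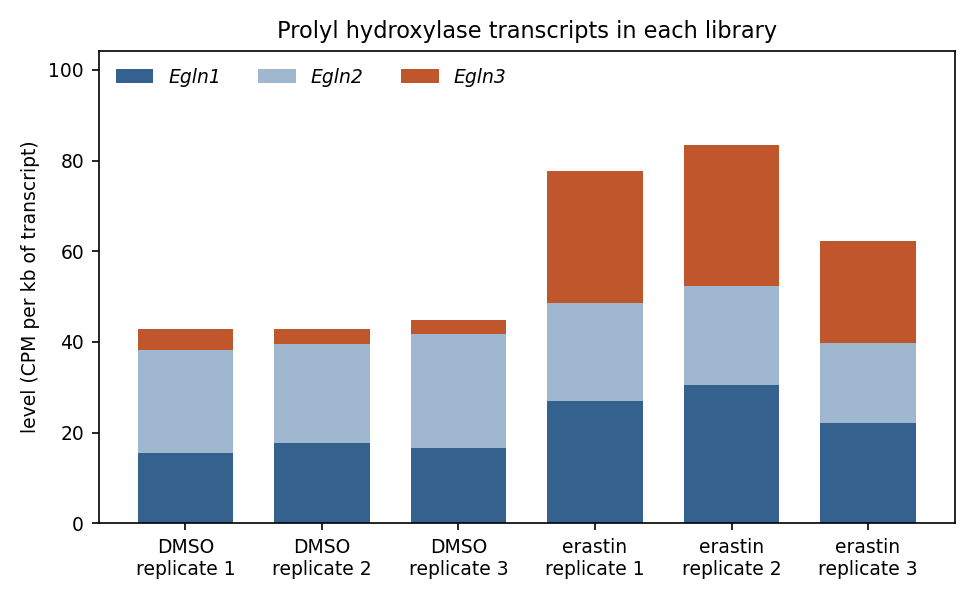
Summed level of the Egln1, Egln2 and Egln3 transcripts in CPM per kb of transcript (vertical axis, from 0), stacked by gene, in each of the 6 libraries. Egln3 is a thin band of 6.47% to 11.1% in the DMSO libraries and 36.1% to 37.6% of the bar in the erastin libraries.

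Vhl (ENSMUSG00000033933.9, chr6:113623959-113631633, plus strand) encodes the subunit that recognises the hydroxylated alpha subunit. Its level was 29.2, 28.2 and 31.8 CPM in the DMSO libraries and 23.7, 32.7 and 30.2 CPM in those with erastin. The erastin libraries spanned the whole DMSO range (log2 fold change -0.046, SE 0.13, 95% interval -0.33 to 0.24, edgeR adjusted p = 0.816). The direction of so small a difference turned to 0.016 with scaling by total count only (edgeR adjusted p = 0.934), and it also turned without DMSO replicate 3 or without erastin replicate 1.

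Of 14 further genes that partner HIF, degrade it or act with it, 13 were tested, 4 were higher and 2 lower, and their median log2 fold change was 0.17. The share called, 46.2%, was near the 43.1% of all genes tested. Cited2, whose product competes with HIF for the co-activators p300 and CBP, had 53.1 ± 5.39 CPM without and 154 ± 6.67 CPM with erastin (log2 fold change 1.54, edgeR adjusted p = 9.96e-09). Crebbp, which encodes CBP, had 137 ± 13.2 CPM without and 182 ± 6.56 CPM with erastin (log2 fold change 0.40, edgeR adjusted p = 0.001299). Elob, the gene of a subunit of the VHL ligase, had 130.2 ± 8.74 CPM without and 93.4 ± 11.9 CPM with erastin (log2 fold change -0.48, edgeR adjusted p = 0.00111). The Elob call was lost with the offset for GC content and length (log2 fold change -0.15, edgeR adjusted p = 0.328), under which edgeR called 3 genes of the list higher and 0 lower. DESeq2, without that offset, called 4 higher and 2 lower. Without erastin replicate 1 the higher genes of this list numbered 2, and the lower genes numbered 1 when any library other than DMSO replicate 1 was left out. Arnt, the constant partner of HIF, was named after its values were seen, with 46.1 ± 2.81 CPM without and 46.8 ± 2.68 CPM with erastin (log2 fold change 0.021, edgeR adjusted p = 0.886), and was not called.

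All 4 target genes rose. Vegfa (ENSMUSG00000023951.12, chr17:46016993-46032369, minus strand), the principal growth factor of blood vessels, had the second largest rise of the 10 genes. It stood at 87.1, 86.7 and 96.2 CPM in the DMSO libraries and at 397, 405 and 323 CPM in those with erastin. The DMSO libraries were close together, and every erastin library was more than 3 times as high as any of them (log2 fold change 2.06, SE 0.091, 95% interval 1.86 to 2.25, edgeR adjusted p = 1.01e-09). Of 5 VEGF relatives and co-receptors 0 were higher and 3 lower (edgeR), 60% called against 43.1% of all genes tested. The higher genes also numbered 0 at an unadjusted p-value below 0.05 and with DESeq2. Nrp2 and Nrp1 encode the neuropilin co-receptors. Nrp2 had 149 ± 4.21 CPM without and 74.8 ± 6.71 CPM with erastin (log2 fold change -0.99, edgeR adjusted p = 3.64e-07), and Nrp1 had 283 ± 5.06 CPM without and 183 ± 8.798 CPM with erastin (log2 fold change -0.63, edgeR adjusted p = 5.37e-06). The growth factor gene Vegfd had 62.7 ± 1.32 CPM without and 31.4 ± 6.63 CPM with erastin (log2 fold change -0.9973, edgeR adjusted p = 1.83e-05). Per kilobase, the log2 ratio of Vegfa over the sum of Vegfb, Vegfc and Vegfd was -0.843 ± 0.103 in DMSO and 1.88 ± 0.407 with erastin, without overlap (exact two-sided permutation p = 0.1, the smallest possible).

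Bnip3 (ENSMUSG00000078566.4, chr7:138890836-138909519, minus strand) encodes a mitochondrial outer membrane protein that draws mitochondria into autophagosomes. It stood at 15.8, 13.4 and 16.7 CPM in the DMSO libraries and at 43.6, 53.7 and 34.8 CPM in those with erastin. The erastin libraries were the more scattered, yet each was more than 2 times the highest DMSO library (log2 fold change 1.53, SE 0.16, 95% interval 1.19 to 1.86, edgeR adjusted p = 2.14e-06). The near relative Bnip3l (NIX), named after its values were seen, had 55.9 ± 3.95 CPM without and 70.8 ± 1.96 CPM with erastin (log2 fold change 0.34, edgeR adjusted p = 0.00636). Per kilobase, the log2 ratio of Bnip3 over Bnip3l was -0.981 ± 0.0666 in DMSO and 0.186 ± 0.353 with erastin, without overlap (exact two-sided permutation p = 0.1, the smallest possible). The Bnip3 level is uncertain because other gene models hold near-identical sequence. Transcripts of 5 other gene models match the longest Bnip3 transcript at 95% identity or more over at least 100 bases. Among them is the copy Gm16439, with 98.9% over 564 bases, the only one of the 5 with a row in the count table. Another of the 5, Gm45507, is an antisense gene that shares 504 exon bases with Bnip3. Gm16439 had 4 reads in each DMSO library and 14, 13 and 8 in the erastin libraries, against 209, 242 and 214 and 936, 897 and 671 for Bnip3, and how reads matching several genes were assigned is not given in the sources used here.

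Ddit4 (ENSMUSG00000020108.3, chr10:59949669-59951834, minus strand), also called REDD1, encodes an inhibitor of the growth kinase complex mTORC1. It stood at 76.3, 90.2 and 96.2 CPM in the DMSO libraries and at 144, 132 and 121 CPM in those with erastin. The groups did not overlap, and the rise was the smallest of the 4 targets (log2 fold change 0.60, SE 0.099, 95% interval 0.38 to 0.81, edgeR adjusted p = 0.000198). Of 13 other genes of mTORC1 and its regulators 4 were higher and 4 lower, 61.5% called against 43.1% of all genes tested. Their median log2 fold change was 0.15. Sesn2, the gene of a stress-induced mTORC1 inhibitor, had 116 ± 8.24 CPM without and 178 ± 5.27 CPM with erastin (log2 fold change 0.62, edgeR adjusted p = 1.72e-05). Tsc1, of the complex through which REDD1 acts, had 48.7 ± 3.91 CPM without and 72.4 ± 3.99 CPM with erastin (log2 fold change 0.57, edgeR adjusted p = 0.000176). Tbc1d7, which encodes the third subunit of that complex, had 14.4 ± 0.517 CPM without and 5.56 ± 0.148 CPM with erastin (log2 fold change -1.37, edgeR adjusted p = 3.5e-05).

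Adm (ENSMUSG00000030790.10, chr7:110627661-110629820, plus strand) encodes adrenomedullin, a secreted peptide that widens vessels. It stood at 51.8, 52.2 and 43.6 CPM in the DMSO libraries and at 122, 126 and 95.9 CPM in those with erastin. Every erastin library lay far above every DMSO library (log2 fold change 1.22, SE 0.11, 95% interval 0.98 to 1.46, edgeR adjusted p = 7.09e-07). Of 6 related genes 2 were higher and 1 lower, 50% called, near the 43.1% of all genes tested. Calcrl, which encodes a subunit of the receptor of adrenomedullin, had 12.9 ± 1.97 CPM without and 43.6 ± 2.83 CPM with erastin (log2 fold change 1.75, edgeR adjusted p = 1.39e-07). The partner subunit genes Ramp2 and Ramp3, named after their values were seen, were not called (edgeR adjusted p = 0.872 and 0.399). Adm2, of a related peptide, had 7.596 ± 0.534 CPM without and 34.5 ± 7.96 CPM with erastin (log2 fold change 2.18, edgeR adjusted p = 2.65e-07). Ackr3, an atypical receptor gene, had 40.1 ± 1.96 CPM without and 32.1 ± 1.33 CPM with erastin (log2 fold change -0.32, edgeR adjusted p = 0.0218). The Ackr3 call was lost without DMSO replicate 1, DMSO replicate 2 or erastin replicate 2 (edgeR adjusted p = 0.0598, 0.0815 and 0.0753), with scaling by total count only and with no filter on low counts.

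**Figure D3:**
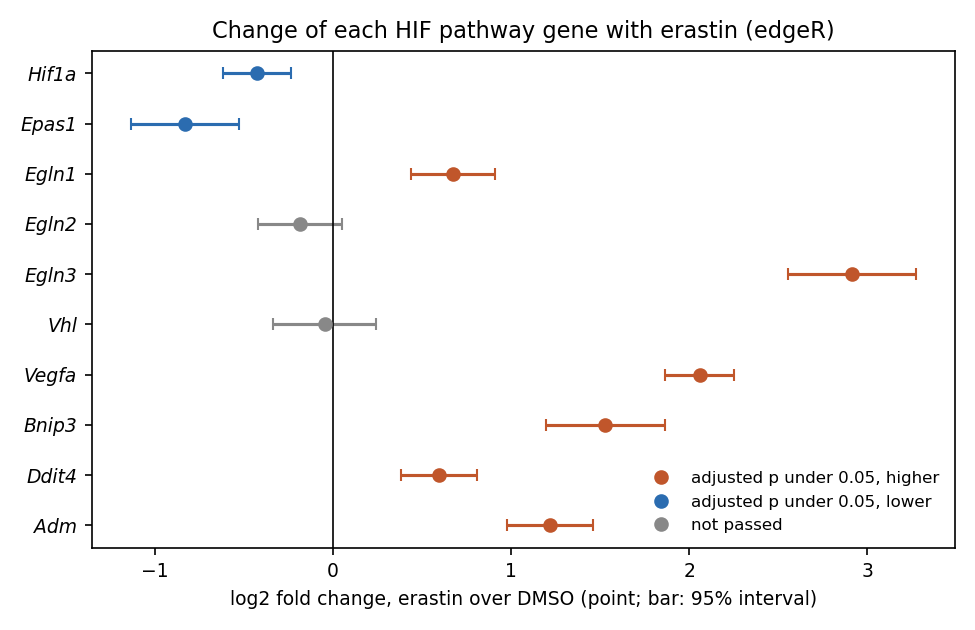
Log2 fold change of erastin over DMSO for each of the 10 genes (horizontal axis; point, edgeR estimate; bar, 95% interval), coloured by the call at an adjusted p under 0.05. Hif1a and Epas1 lie below 0, Egln2 and Vhl span 0, and the largest rise is that of Egln3 at 2.91.

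The order of the levels per kilobase of transcript differed between the groups. Within a group it rests on the longest annotated transcript of each gene. In DMSO Hif1a was highest at 98.4 ± 8.103 CPM per kb, followed by Ddit4 at 49.9 ± 5.82 and Adm at 35.4 ± 3.48. Vegfa at 26.1 ± 1.55 and Egln2 at 23.2 ± 1.73 CPM per kb came next and overlapped. Below them stood Egln1 at 16.6 ± 1.102, Vhl at 10.7 ± 0.677 and Bnip3 at 8.71 ± 0.956 CPM per kb. Epas1 at 4.89 ± 0.264 and Egln3 at 3.66 ± 0.9803 CPM per kb were lowest and overlapped, while no other neighbours in this order did. With erastin Vegfa stood first at 109 ± 13.2 CPM per kb, above the next gene in every library. Adm at 82.4 ± 11.7, Ddit4 at 75.4 ± 6.64 and Hif1a at 73.1 ± 8.72 CPM per kb formed a run in which each overlapped with the next. Egln3 at 27.5 ± 4.51, Egln1 at 26.5 ± 4.204, Bnip3 at 25.1 ± 5.39 and Egln2 at 20.4 ± 2.34 CPM per kb formed another such run. Vhl at 10.3 ± 1.67 and Epas1 at 2.75 ± 0.372 CPM per kb were lowest and overlapped with no neighbour.

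The 6 genes that rose shared their lowest erastin library. Erastin replicate 3 was the lowest of the 3 for all 6, and also for 21 of the 27 other HIF targets that rose (77.8%). Among all 3024 genes that rose it was the lowest for 1379 (45.6%). Of the genes that fell, Hif1a was at its highest erastin level in that library and Epas1 at its lowest. Without erastin replicate 3 the 6 genes were still called higher and the 2 lower. The genes whose profile over the 6 libraries lay nearest to that of Egln3, by the distance between centred log2 CPM values, were Ndrg1 (0.442), Cth (0.459) and Csrnp1 (0.508). Ndrg1, widely used as a hypoxia marker, had 27.8 ± 3.88 CPM without and 186 ± 26.98 CPM with erastin. Cth, which encodes an enzyme that makes cysteine, had 17.7 ± 3.38 CPM without and 150.03 ± 3.45 CPM with erastin, and Csrnp1 had 17.9 ± 1.803 CPM without and 129 ± 28.1 CPM with erastin. These distances compare profiles dominated by the difference between the groups.

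A wider set of 62 known HIF targets in 6 lists, without the 10 genes above, was compared in the same way. Of the 58 tested, 27 were higher (46.6%) and 11 lower (19.0%), against 21.6% and 21.5% of all genes tested, and their median log2 fold change was 0.25. The lists were chosen with earlier results of these data known, so these shares describe the lists and are no test of them. Without DMSO replicate 2 the lower targets numbered 7 and the higher ones 23.

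Targets in feedback, chromatin and stress had 7 of 8 genes higher and 0 lower (edgeR), 87.5% called against 43.1% of all genes tested. The median log2 fold change of this list was 0.92. The lower genes also numbered 0 at an unadjusted p-value below 0.05 and with DESeq2. Besides Ndrg1 (log2 fold change 2.74, edgeR adjusted p = 1.01e-09), Ero1l, which encodes an oxidase that forms disulfide bonds in the endoplasmic reticulum, had 85.1 ± 8.01 CPM without and 319 ± 23.1 CPM with erastin (log2 fold change 1.91, edgeR adjusted p = 1.11e-09). Kdm3a, the gene of a histone demethylase, had 26.4 ± 2.79 CPM without and 58.6 ± 2.73 CPM with erastin (log2 fold change 1.15, edgeR adjusted p = 7.88e-07). Ankrd37, a hypoxia-responsive gene named after its values were seen, had 5, 17 and 30 reads in DMSO and 328, 227 and 190 in erastin libraries (log2 fold change 3.42, edgeR adjusted p = 9.87e-06).

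Among the 21 targets in glucose use 8 were higher and 5 lower, 61.9% called against 43.1% of all genes tested. Their median log2 fold change was 0.24. Slc2a1, the glucose transporter GLUT1, had 108 ± 13.4 CPM without and 404 ± 66.5 CPM with erastin (log2 fold change 1.90, edgeR adjusted p = 1.45e-08). Hk2, the hexokinase of the first step of glycolysis, had 93.8 ± 7.55 CPM without and 303 ± 48.3 CPM with erastin (log2 fold change 1.69, edgeR adjusted p = 2.12e-08). Pfkfb3, whose product makes an activator of phosphofructokinase, had 27.2 ± 6.55 CPM without and 107 ± 15.4 CPM with erastin (log2 fold change 1.98, edgeR adjusted p = 1.07e-07). The 5 lower genes, named because they are few, were Ldha, Gapdh, Tpi1, Pkm and Aldoc. They encode enzymes of glycolysis and of lactate formation. The higher genes Hk2, Pgam1 and Pfkp encode enzymes of glycolysis as well. Ldha, which encodes a lactate dehydrogenase subunit, had 562.5 ± 44.7 CPM without and 384 ± 34.8 CPM with erastin (log2 fold change -0.55, edgeR adjusted p = 7.79e-05). The log2 fold change was -0.35 for Gapdh (edgeR adjusted p = 0.00633) and -0.23 for Tpi1 (edgeR adjusted p = 0.0209). It was -1.60 for Aldoc (edgeR adjusted p = 0.0223) and -0.17 for Pkm (edgeR adjusted p = 0.0447). The lower genes numbered 3 with scaling by total count only, with no filter, with the GC and length offset and without erastin replicate 1 or 3, and 2 without DMSO replicate 2.

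Among the 8 targets in mitochondria 5 were higher and 1 lower, 75% called against 43.1% of all genes tested. Their median log2 fold change was 0.51. Mxi1 encodes a MYC antagonist of the nucleus, not a mitochondrial protein. Its level was 11.7 ± 0.993 CPM without and 34.2 ± 2.82 CPM with erastin (log2 fold change 1.54, edgeR adjusted p = 4.6e-07). The protease gene Lonp1 had 185 ± 20.8 CPM without and 339 ± 12.3 CPM with erastin (log2 fold change 0.88, edgeR adjusted p = 1.06e-06). The adenylate kinase gene Ak4 had 9.95 ± 0.89998 CPM without and 30.9 ± 5.65 CPM with erastin (log2 fold change 1.63, edgeR adjusted p = 1.62e-06). Ndufa4l2, named as the only lower gene of the list, had 16.8 ± 4.84 CPM without and 9.36 ± 1.92 CPM with erastin (log2 fold change -0.84, edgeR adjusted p = 0.006399).

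The 7 targets in collagen and matrix processing had 2 higher and 3 lower genes, 71.4% called against 43.1% of all genes tested. Their median log2 fold change was -0.088. Plod1, of a lysyl hydroxylase that modifies collagen, had 115 ± 9.35 CPM without and 81.98 ± 4.12 CPM with erastin (log2 fold change -0.48, edgeR adjusted p = 0.000413). Loxl2, of a lysyl oxidase, had 348 ± 13.6 CPM without and 281 ± 21.9 CPM with erastin (log2 fold change -0.31, edgeR adjusted p = 0.00401). The higher genes numbered 1 when any library other than DMSO replicate 1 was left out. The fibroblast markers that fell include Col1a1, which had 10976 ± 429 CPM without and 6607 ± 261 CPM with erastin, and Col1a2, which had 8102 ± 98.3 CPM without and 4535 ± 579 CPM with erastin, and their part in these results was not tested.

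Of 11 targets in vessel growth and secretion 8 were tested, 2 were higher and 2 lower, with a median log2 fold change of -0.091. The 50% called was near the 43.1% of all genes tested. Stc2, a stanniocalcin gene, had 21.8 ± 4.05 CPM without and 137 ± 14.5 CPM with erastin (log2 fold change 2.64, edgeR adjusted p = 1.41e-09). Cxcl12, a chemokine gene, had 319 ± 11.5 CPM without and 118 ± 21.8 CPM with erastin (log2 fold change -1.43, edgeR adjusted p = 9.21e-08). Kdr, the main receptor gene for VEGF-A signalling in vessels, had 3.199 ± 1.14 CPM without and 8.25 ± 0.717 CPM with erastin (log2 fold change 1.38, edgeR adjusted p = 0.00172). The markers of endothelial cells, where Kdr is best known, were low. The summed level of 5 such markers was 2.10 to 3.55 CPM without and 6.70 to 8.87 CPM with erastin, most of it from Tek, at 2.26 ± 0.283 CPM without and 6.23 ± 0.523 CPM with erastin. Pecam1, Cdh5 and Tie1 were near 0, with means of at most 0.372 CPM, and the part of these markers in the Kdr result was not tested. Pdgfb, the second lower gene, had 9, 13 and 15 reads in DMSO and 6, 2 and 3 in erastin libraries. The lower genes of this list numbered 1 when any 1 library was left out. With all 6 libraries they also numbered 1 with DESeq2, the replicate block, no filter on low counts and a filter at 1 CPM. The same held for the GC and length offset with the replicate block. They numbered 2 with the other scalings and with that offset alone.

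In the list on pH, iron and heme 6 of 7 genes were tested, 3 were higher and 0 lower (edgeR), with a median log2 fold change of 0.38. The 50% called was near the 43.1% of all genes tested, and 21.5% of all genes tested were lower with erastin. The lower genes of this list also numbered 0 at an unadjusted p-value below 0.05 and with DESeq2. Hmox1, of the heme-degrading enzyme, had 186 ± 7.203 CPM without and 2703 ± 552 CPM with erastin (log2 fold change 3.86, edgeR adjusted p = 8.29e-11). Tfrc, of the transferrin receptor that imports iron, had 64.2 ± 1.7998 CPM without and 119 ± 11.3 CPM with erastin (log2 fold change 0.89, edgeR adjusted p = 1.85e-06). Cp, the ceruloplasmin gene, had 2.97 ± 1.03 CPM without and 6.51 ± 1.82 CPM with erastin (log2 fold change 1.13, edgeR adjusted p = 0.0145). The Cp call was lost without DMSO replicate 1 or without erastin replicate 3 (edgeR adjusted p = 0.0573 and 0.0762). Car9, a carbonic anhydrase gene used as a hypoxia marker, was named after its values were seen. It had 2.06 ± 0.151 CPM without and 1.02 ± 0.421 CPM with erastin. Every erastin library lay below every DMSO library, but Car9 was not called (log2 fold change -0.9998, edgeR adjusted p = 0.129).

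**Figure D4:**
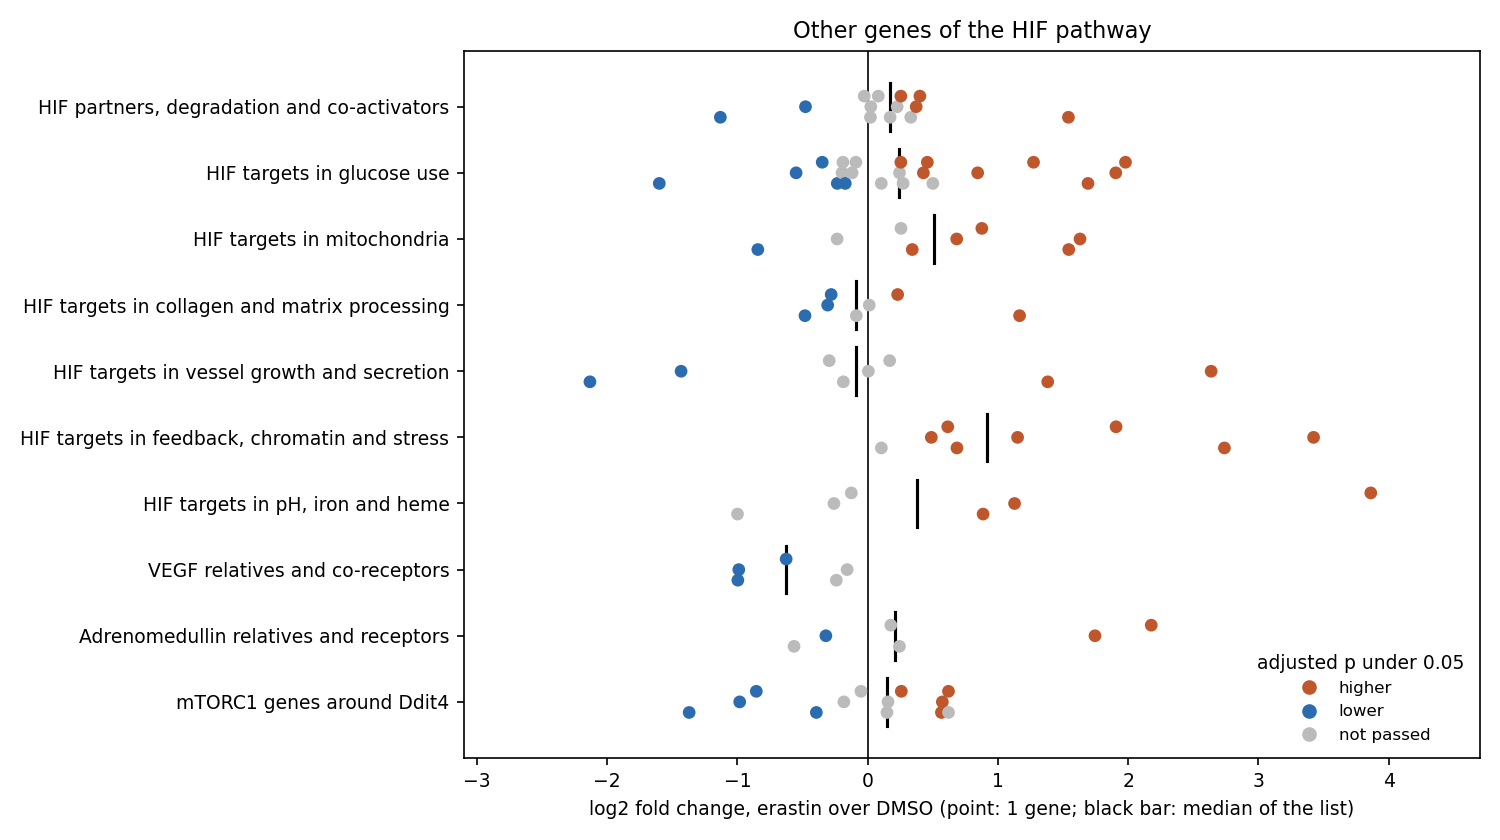
Log2 fold change of erastin over DMSO (horizontal axis) for each tested gene of the 10 pathway lists, 1 point per gene, coloured by the call at an adjusted p under 0.05, with the median of each list as a black bar. The list on feedback, chromatin and stress has 7 of 8 genes higher, whereas the list on glucose use has genes on both sides of 0 and that of VEGF relatives has 0 higher.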

How the data were processed

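RNA depleted of ribosomal RNA was fragmented and sequenced on an Ion Proton, per the labels' protocols. The authors deposited whole-number read counts per gene, not normalized, with 1 column per library. HTSeq 0.9.1, SAMtools and the build mm10 are named in the submitters' processing notes; the aligner, annotation and strand setting are not given in the sources used here. Columns were matched to samples by the sample numbers in the labels, which left 0 sample columns aside. Identifiers were matched to GENCODE M21 (GRCm38, the same build as mm10), which gave a symbol for 98.0% of rows, the coordinates and the longest transcript, whose length gives CPM per kb.

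edgeR 4.0.16 in R 4.3.3 compared erastin with DMSO over all 6 libraries (filterByExpr with minimum count 10 and total 15, TMM factors, quasi-likelihood test, Benjamini-Hochberg over 14000 genes, threshold 0.05). CPM uses TMM-scaled library sizes. The scripts were tested on simulated data. The labels do not say that equal replicate numbers mark a shared culture or day, so no block was used. Libraries with equal replicate numbers had deviations correlated at -0.0055 to 0.0401 across genes. No batch is named in the labels, and read counts differed between libraries of a group by more than sampling noise (chi-square per degree of freedom at least 11.0).

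Alternatives were other scalings and filters, a replicate block, DESeq2 1.42.0, an offset for GC content and length (mgcv 1.9.3), a stricter threshold and leaving out each library; applying them to the lists and named list genes was decided after seeing the data. The 10 genes and the lists were chosen with earlier results of these data known. All 10 are named, with the 3 smallest p-values of each list and the 3 profiles nearest to the gene with the largest change. Some list genes are also named because a count is 5 or fewer, but not every gene behind such a count is named. A list gene that this rule takes is not reported here. The floor of 3 counts covers counting error only.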

Additional observations from a re-analysis of the deposited data

How the results depend on the processing

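In each of the 15 alternatives run on the 10 genes, the 6 rises and 2 falls were called in the same direction, at adjusted p-values (edgeR or DESeq2) of at most 0.0121. The stricter threshold of 0.01 also left these calls in place. Egln2 and Vhl were called in none, but their direction turned. Egln2 was 0.117 with the offset for GC content and length and 0.1147 with that offset and the replicate block. Vhl was 0.01641 with scaling by total count only, and between -0.144 and 0.0793 when 1 library was left out. The HIF targets called lower numbered 11 in the fit reported, 6 at the stricter threshold of 0.01, and 7 to 9 when 1 library was left out. With all 6 libraries and the threshold of the fit reported, the number also varied. It was 8 with no filter on low counts and 8 with the GC and length offset plus the replicate block. It was 9 with that offset alone and with scaling by total count only, and 10 with DESeq2 and with a filter at 1 CPM. With the other scalings it was 11 or 12. Why the number differed between these fits was not tested. Using replicate numbers as a block gave 5882 calls over all genes against 6028 without it, 26 higher and 9 lower HIF targets, and changed no call among the 10 genes. The numbers are not taken as a pairing, since the labels name none. Equally numbered libraries were almost uncorrelated over all genes, which cannot decide whether single genes were paired. For the 30 genes that the naming rule takes from the lists, 441 of 450 values kept direction and side of the threshold, 9 were no longer called (Ackr3, Elob and Cp) and 0 turned. Cp, Aldoc and Pdgfb, which were called, and Car9, which was not, had group means between 0.185 and 6.51 CPM. Ankrd37 and Kdr, both called higher, had DMSO means of 1.22 and 3.2 CPM. The part of depth in these results was not tested.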
